A study of Mus musculus with 6 samples.

Results

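The vascular ligands examined here are 10 secreted growth factors that act on blood vessels and on the cells around them: the VEGF family members Vegfa, Vegfb, Vegfc and Pgf, the PDGF chains Pdgfa, Pdgfb, Pdgfc and Pdgfd, and the angiopoietins Angpt1 and Angpt2. They were taken by gene symbol from the authors' list of 15973 protein-coding genes, which holds 9 of the 10, and their counts were read by gene ID. Pdgfd is not in that list and had 0 counts in all 6 libraries, which allows a level of up to 0.0323 to 0.0426 CPM (the count divided by TMM-scaled library size) from counting error alone. The cells were 4T1-T, a VM-proficient sub-clone of the mouse mammary carcinoma line 4T1, so every library came from a single clone. VM, vasculogenic mimicry, is the formation of vessel-like channels by tumor cells. Cells were kept overnight without serum in Opti-Mem with 0.3% BSA and were given Alexa-488 labelled acetylated low-density lipoprotein (acLDL) at 10 ug/mL for 4 h. After 1 h in complete growth medium they were sorted into the 25% with the most fluorescence (acLDL-high, n = 3) and the 25% with the least (acLDL-low, n = 3). The series text says that the experiment was done on separate occasions, and libraries of both populations carry the numbers 1 to 3, so each number was treated as a pair. All libraries therefore shared the starvation, the lipoprotein and the trypsin step, and no library of unsorted or untreated cells was analysed here.

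VEGF-A is the main growth factor for endothelial sprouting and signals mainly through VEGFR2 (Kdr). VEGF-B and placental growth factor (Pgf) bind VEGFR1 (Flt1), VEGF-C is the main lymphatic factor and acts through VEGFR3 (Flt4), and neuropilins (Nrp1, Nrp2) are co-receptors. PDGF chains pair into dimers, of which PDGF-BB recruits pericytes, the cells that wrap small vessels, through Pdgfrb. Angiopoietin-1 activates the receptor Tie2 (Tek) and stabilises vessels, whereas angiopoietin-2 often opposes it. Hypoxia-inducible factors (HIF) are known inducers of Vegfa. The comparison of the sorted populations asks which of these mRNAs go with the uptake of acLDL, a property of endothelial cells by which the tumor cells were sorted.

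Promoter sequence is shown for detected ligands with a RefSeq start (GRCm38.p6) whose 250 preceding bases hold no annotated exon of any gene. These were Vegfa and Pdgfc, which rose in acLDL-high cells, and Vegfb and Vegfc, which gave no call. RefSeq promoters were found for 7 of the 10 ligands, and Pdgfb, Angpt1 and Angpt2 are named only. Sequences run 5′ to 3′ on the gene's strand, and capitals mark matches on either strand to the GC box GGGCGG, the cores ACGTG and GCGTG of the hypoxia response element, and the TATA box TATAAA. The windows are chr17:46032378-46032627 (minus strand) for Vegfa, chr3:81036166-81036415 (plus strand) for Pdgfc, chr19:6987652-6987901 (minus strand) for Vegfb and chr8:54077282-54077531 (plus strand) for Vegfc.
Vegfa: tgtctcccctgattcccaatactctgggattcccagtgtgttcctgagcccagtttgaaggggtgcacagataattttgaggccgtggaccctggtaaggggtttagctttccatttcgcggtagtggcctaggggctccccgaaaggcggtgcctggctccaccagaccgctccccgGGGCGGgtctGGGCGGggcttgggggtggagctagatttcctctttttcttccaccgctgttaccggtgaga
Pdgfc: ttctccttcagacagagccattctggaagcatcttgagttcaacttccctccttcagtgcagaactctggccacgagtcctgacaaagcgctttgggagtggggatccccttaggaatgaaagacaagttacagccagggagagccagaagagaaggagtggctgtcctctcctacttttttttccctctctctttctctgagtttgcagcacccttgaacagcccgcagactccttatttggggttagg
Vegfb: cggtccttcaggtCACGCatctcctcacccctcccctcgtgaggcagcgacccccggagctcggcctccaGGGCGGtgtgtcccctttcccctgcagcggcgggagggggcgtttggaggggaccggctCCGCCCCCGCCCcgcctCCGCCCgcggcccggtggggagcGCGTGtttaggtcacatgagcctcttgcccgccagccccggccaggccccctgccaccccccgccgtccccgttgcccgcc
Vegfc: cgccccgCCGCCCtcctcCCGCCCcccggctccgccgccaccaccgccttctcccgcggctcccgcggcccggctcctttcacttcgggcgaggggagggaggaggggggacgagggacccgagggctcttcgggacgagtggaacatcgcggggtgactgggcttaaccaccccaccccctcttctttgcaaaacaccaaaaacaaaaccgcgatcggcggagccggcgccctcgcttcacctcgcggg
The Vegfa window held 2 GC boxes at a GC content of 59.2%, and the Pdgfc window held none of these motifs at 50.8%. The Vegfb window was the richest in GC, at 76.4%, with 4 GC boxes, none overlapping, and 2 hypoxia cores of the form GCGTG, and that of Vegfc had 2 GC boxes at 71.6%. Among 32851 RefSeq promoter windows of this length, 32.7% held a GC box, 38.6% held either hypoxia core and 12.4% held the TATA box. These matches describe the windows only. RefSeq has a further Vegfa start, inside the gene, whose window overlaps an exon and is not shown. That window held 1 ACGTG core, 1 GCGTG core and 1 GC box.

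Measured per length, Vegfa and Vegfb were the most abundant of the ligands and the angiopoietins the least. To compare genes, CPM was divided by the exon length in kb of each gene in GENCODE M21, and values are given as the mean over all 6 libraries with its SD. Vegfa stood at 39.5 ± 9.28 CPM per kb and Vegfb at 35.3 ± 2.87, above Pdgfa at 19.2 ± 4.02 and Pdgfb at 14.4 ± 6.54. Vegfc followed at 8.18 ± 0.508, Pgf at 5.03 ± 1.83 and Pdgfc at 3.58 ± 1.32. Angpt1 was at 2.38 ± 2.26 and Angpt2 at 1.04 ± 0.331 CPM per kb. Among the 15973 protein-coding genes these levels put Vegfa at percentile 92.6 and Angpt2 at percentile 37.7. The order of neighbours was not fixed everywhere. Vegfa exceeded Vegfb in 3 of 6 libraries and Pdgfa exceeded Pdgfb in 4 of 6, all but those of replicate 1. Neither difference was tested. Pdgfc exceeded Angpt1, and Angpt1 exceeded Angpt2, in 5 of 6. Vegfb exceeded Pdgfa, Pdgfb exceeded Vegfc, Vegfc exceeded Pgf and Pgf exceeded Pdgfc in all 6. The exon length covers every annotated exon and the counts are per gene, so the splice forms of Vegfa were not resolved.

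**Figure D1:**
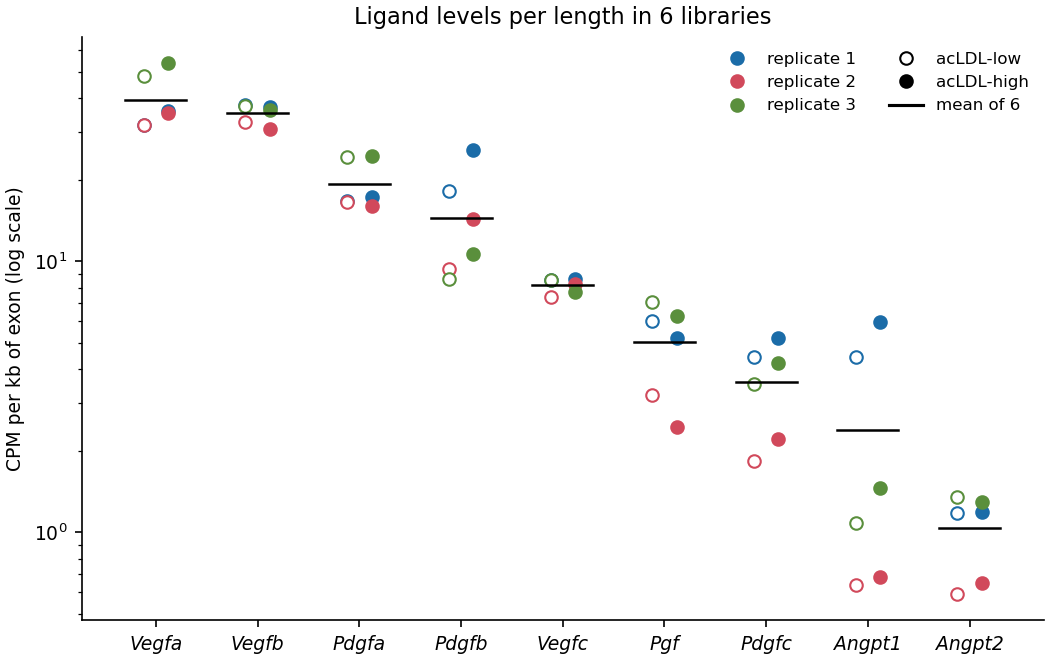
Each point is the level of a ligand in a library, in CPM per kb of exon on a log axis, with open circles for acLDL-low and filled circles for acLDL-high cells, colors for the replicate and a line for the mean of 6 libraries. Vegfa and Vegfb lie highest, at means of 39.5 and 35.3, and the Angpt1 points of replicate 1 stand above those of the other replicates.

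Within the VEGF family, Vegfa rose in acLDL-high cells, while no other member passed the test. Vegfa (ENSMUSG00000023951, chromosome 17 of GRCm38, 46016993 to 46032369) was at 137, 136 and 207 CPM in acLDL-low replicates 1, 2 and 3 and at 154, 151 and 230.3 CPM in acLDL-high. The acLDL-high library was the higher in each pair, but the populations overlapped, since replicate 3 was high in both. The log2 fold change was 0.16 (standard error 0.04, edgeR adjusted p = 0.0354), a 1.11-fold rise with a 95% interval of 1.05 to 1.18. The pairs differed by 0.17, 0.15 and 0.15 in log2 CPM. The call is near the threshold: leaving out replicate 1, 2 or 3 gave an edgeR adjusted p of 0.130, 0.0548 or 0.192 at log2 fold changes between 0.14 and 0.16.

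Pgf, a ligand of VEGFR1, lay on the other side. It was at 17.4, 9.30 and 20.5 CPM in acLDL-low replicates 1, 2 and 3 and at 15.2, 7.08 and 18.3 CPM in acLDL-high. Every acLDL-high library was below its acLDL-low partner. The log2 fold change of -0.24 (standard error 0.07, edgeR adjusted p = 0.0642) missed the threshold. Without the filter on low counts the log2 fold change of Pgf was also -0.24 and its edgeR adjusted p was 0.0333. Vegfb, which shares that receptor, was at 60.6, 52.6 and 60.2 CPM in acLDL-low replicates 1, 2 and 3, against 59.3, 49.4 and 58.0 CPM for acLDL-high. It was lower in all 3 pairs by small amounts, at a log2 fold change of -0.06 (95% interval -0.15 to 0.03, edgeR adjusted p = 0.494). Vegfc, at 21.0, 18.1 and 20.9 CPM against 21.1, 20.2 and 18.9 CPM, had a log2 fold change of 0.01 (95% interval -0.13 to 0.15, edgeR adjusted p = 0.966). Its pairs differed in direction.

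**Figure D2:**
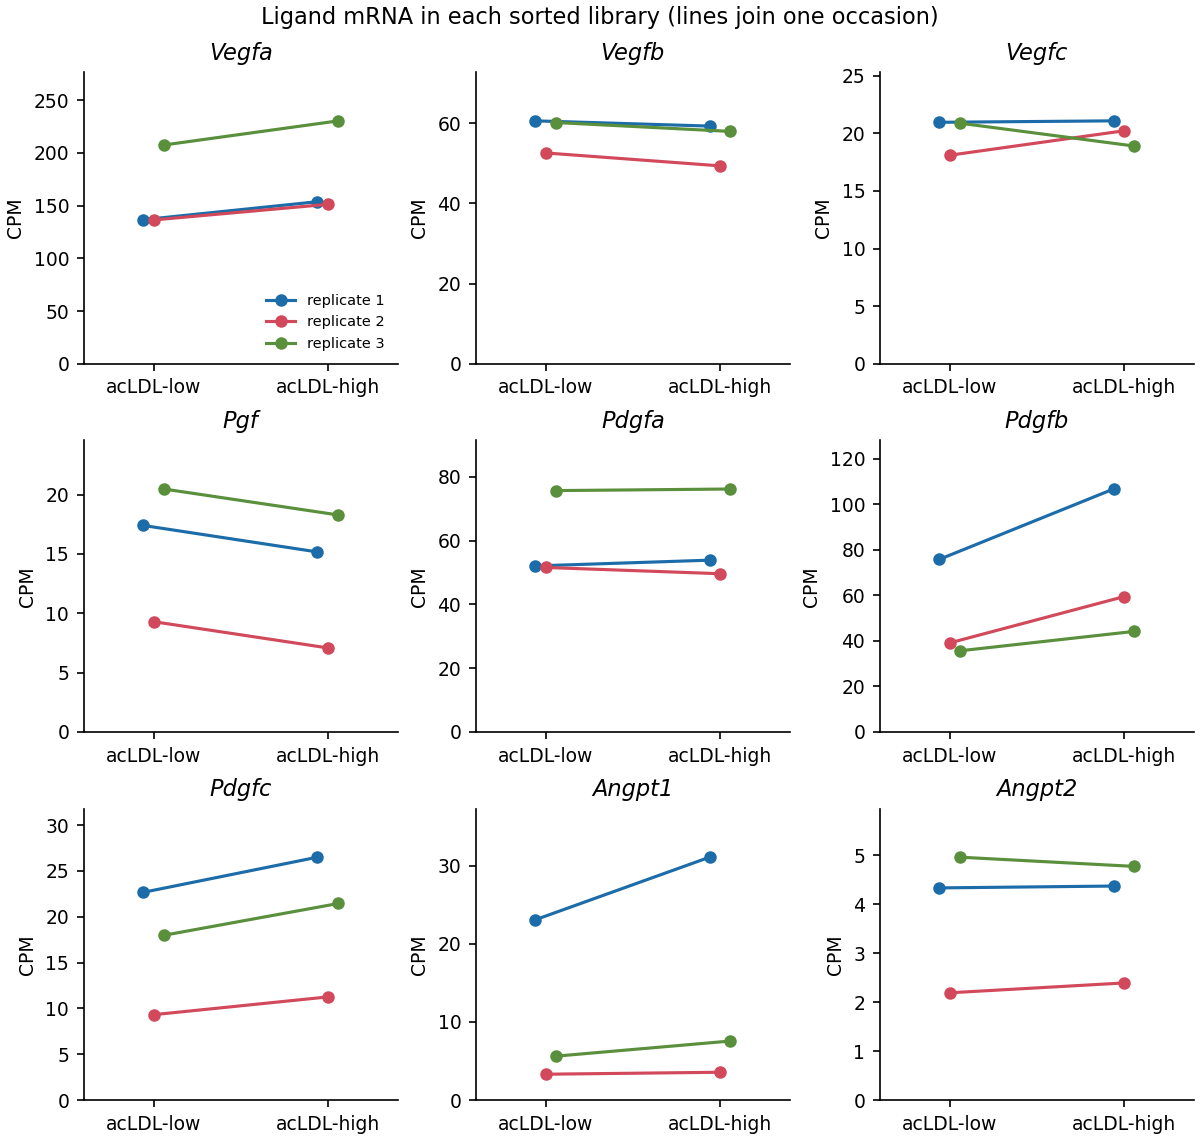
CPM of the 9 detected ligands in acLDL-low and acLDL-high cells, each panel on its own axis from 0, with a line joining the libraries of a replicate. The lines of Vegfa, Pdgfb, Pdgfc and Angpt1 rise in all 3 replicates, those of Vegfb and Pgf fall in all 3, and the gaps between lines are mostly wider than the slopes.

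Of the PDGF chains, Pdgfb and Pdgfc rose in acLDL-high cells and Pdgfa did not. Pdgfb (ENSMUSG00000000489, chromosome 15, 79995874 to 80014977) encodes the chain of PDGF-BB and showed the largest change of the ligands. It was at 75.7, 39.1 and 35.6 CPM in acLDL-low replicates 1, 2 and 3 and at 107, 59.4 and 44.2 CPM in acLDL-high, so each pair rose although replicate 1 was far above the others in both populations. The log2 fold change was 0.47 (standard error 0.05, edgeR adjusted p = 0.000224), a 1.39-fold rise with a 95% interval of 1.28 to 1.50. By p-value Pdgfb ranked 35 among the 12329 genes tested and by log2 fold change 306. It was called in 8 of the 9 alternative analyses, the exception being the fit without the replicate block.

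Pdgfc (ENSMUSG00000028019, chromosome 3, 81036416 to 81214040) encodes the chain of PDGF-CC, which is secreted latent and needs a protease to be active. It was at 22.7, 9.32 and 18.0 CPM in acLDL-low replicates 1, 2 and 3 and at 26.5, 11.3 and 21.4 CPM in acLDL-high. The rise was even across the pairs, at 0.23, 0.27 and 0.25 in log2 CPM, and replicate 2 was low in both populations. The log2 fold change of Pdgfc was 0.25 (standard error 0.06, edgeR adjusted p = 0.0286), or 1.19-fold with a 95% interval of 1.09 to 1.30. The adjusted p was 0.0739 with DESeq2, 0.0775 without replicate 1 and 0.214 without replicate 3 in edgeR. Pdgfa, the chain of PDGF-AA, was at 52.1, 51.6 and 75.7 CPM against 53.9, 49.7 and 76.2 CPM. Its log2 fold change was 0.0011 (95% interval -0.09 to 0.10, edgeR adjusted p = 0.992), and the sign of this value turned in some alternatives. An antisense gene, 6330403L08Rik, overlaps 813 bases of the Pdgfa exons and had 194 to 596 counts, against 3590 to 7076 for Pdgfa. The strand setting of the counting is not given in the sources used here, so reads over the shared bases carry that doubt. Antisense genes also overlap exons of Pdgfc and Angpt1, but had at most 1 and 12 counts in a library.

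Angpt1 rose and Angpt2 did not pass the test. Angpt1 (ENSMUSG00000022309, chromosome 15, 42424723 to 42676977) was at 23.1, 3.32 and 5.63 CPM in acLDL-low replicates 1, 2 and 3 and at 31.1, 3.57 and 7.56 CPM in acLDL-high. Replicate 1 held most of the Angpt1 mRNA in both populations, and the pairs differed by 0.43, 0.10 and 0.42 in log2 CPM. The log2 fold change of Angpt1 was 0.35 (standard error 0.08, edgeR adjusted p = 0.0253), a 1.28-fold rise with a 95% interval of 1.13 to 1.44. Its adjusted p was 0.0592 with DESeq2, and in edgeR 0.280 without replicate 1 and 0.229 without replicate 3. Angpt2 (ENSMUSG00000031465, chromosome 8, 18690263 to 18741562), which lies within the span of Mcph1 on the other strand without sharing exons, was at 4.33, 2.19 and 4.96 CPM against 4.37, 2.39 and 4.77 CPM. Its log2 fold change was 0.02, and the 95% interval of -0.22 to 0.26 is the widest among the ligands.

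In all, 4 of the 9 ligands tested rose in acLDL-high cells and none fell, where 4.01% of the 12329 genes tested rose and 1.45% fell (5.47% in either direction). The same 4 ligands were higher in all 3 pairs, as were 22.3% of all genes, and 2 (Vegfb and Pgf) were lower in all 3, as were 19% of all genes. The values of acLDL-high and acLDL-low libraries overlapped for every ligand, so 0 of 9 stood apart, where 1.32% of all genes did so upward and 1.58% downward. The median log2 fold change was 0.02 over the 9 ligands and 0.01 over all genes tested. Without the replicate block, where the differences between occasions enter the error, the edgeR adjusted p was 1 for each of the 9 ligands and no gene was called (45 had an unadjusted p under 0.05). DESeq2 with the block called 2 of the 4, Vegfa and Pdgfb. In these bulk libraries a larger share of cells with a ligand and more mRNA per cell cannot be told apart.

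**Figure D3:**
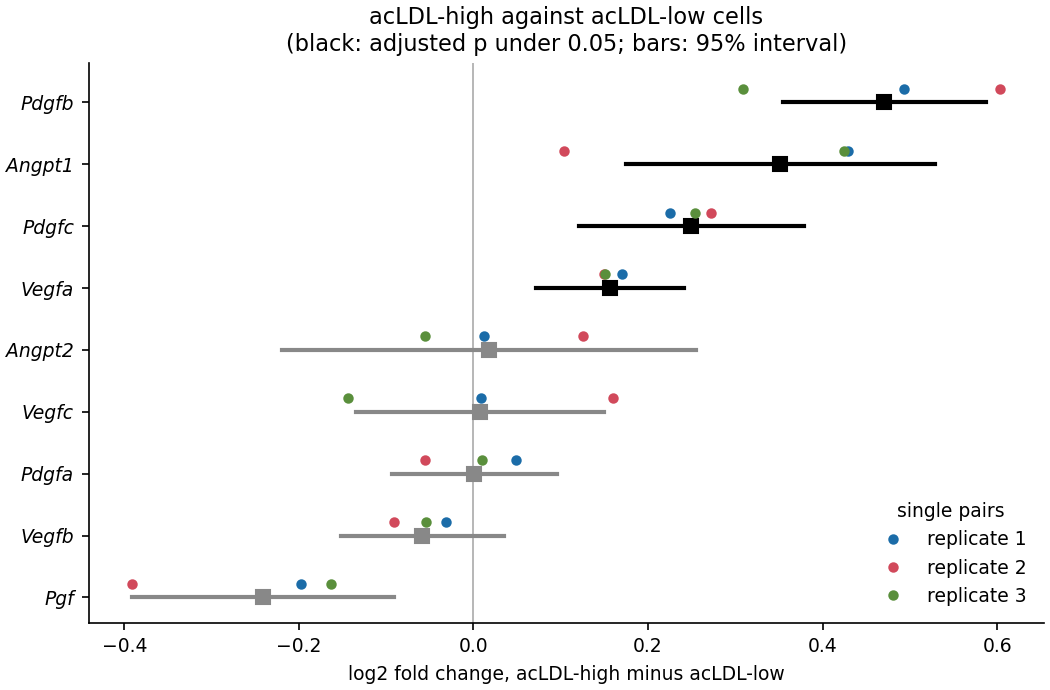
Log2 fold change of each ligand between acLDL-high and acLDL-low cells is shown as squares, with 95% intervals derived from the edgeR test as bars. The differences of single pairs are colored points above, and black marks an adjusted p under 0.05. Pdgfb, Angpt1, Pdgfc and Vegfa lie to the right of 0 with all of their pairs, from 0.47 down to 0.16, while the intervals of Vegfb, Vegfc, Pdgfa and Angpt2 include 0.

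For each of the 9 ligands the span from the lowest to the highest occasion mean was wider than the fold between the sorted populations. A span over 3 occasions cannot fall below 0, and how many other genes show this was not counted. Over all genes tested the median span was 0.44 in log2 CPM. A test of the 3 replicate numbers in the same fit called 8 of the 9 ligands, all but Vegfc (edgeR adjusted p = 0.303), where 79.3% of all genes were called, so this share is near the background. Angpt1 had the widest span, 7.73-fold between the means of replicates 1 and 2 (edgeR adjusted p = 7.32e-11). The spans were 2.39-fold for Pdgfc, 2.38-fold for Pgf, 2.26-fold for Pdgfb and 2.11-fold for Angpt2. They were 1.52-fold for Vegfa, 1.50-fold for Pdgfa, 1.18-fold for Vegfb and 1.10-fold for Vegfc. The ligands did not vary as a block. Vegfa and Pdgfa were highest in replicate 3, Pdgfb, Pdgfc and Angpt1 in replicate 1, and Pgf, Pdgfc, Angpt1 and Angpt2 were lowest in replicate 2. Without replicate 3, Vegfa and Pdgfa were no longer called between occasions, and without replicate 2, Vegfb and Angpt2 were not. What differed between the occasions is not given in the labels.

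The balance within a family followed the same lines. Per length, Vegfa made up 37.9%, 42.3% and 47.7% of the VEGF family mRNA (Vegfa, Vegfb, Vegfc and Pgf) in acLDL-low replicates 1, 2 and 3 and 41.4%, 46.0% and 51.7% in acLDL-high. The share was higher in acLDL-high cells in every pair, and the populations overlapped. Pdgfb made up 46.2%, 33.8% and 23.5% of the PDGF mRNA in acLDL-low replicates 1, 2 and 3 and 53.3%, 44.0% and 27.0% in acLDL-high. In replicate 1 Pdgfb thus exceeded Pdgfa in both populations, at a ratio of Pdgfa to Pdgfb of 0.918 and 0.674, and in replicate 3 Pdgfa was the more abundant, at 2.84 and 2.30. Angpt1 took 79.0% and 83.4% of the angiopoietin mRNA in replicate 1, in acLDL-low and acLDL-high cells, and between 44.6% and 52.9% in the other libraries. These shares are given as a description, with no test.

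**Figure D4:**
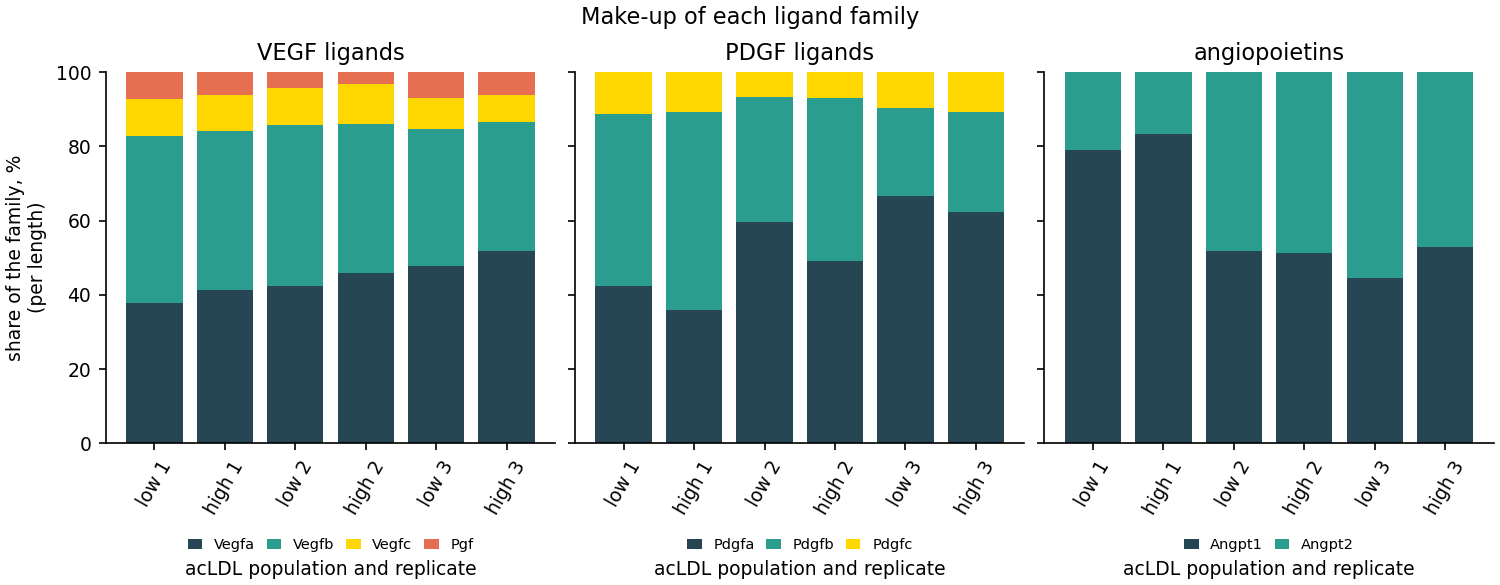
Stacked bars give the share of each ligand in its family, in percent of CPM per kb, for the 6 libraries ordered by replicate. Within each replicate the Vegfa and Pdgfb segments are larger in acLDL-high than in acLDL-low cells, and the Angpt1 segment of replicate 1 is the largest of the angiopoietin bars.

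Several receptors for these ligands were not detected above the floor in the same cells. No library held more than 2 counts for Kdr, Pdgfrb or Tek, and 0 counts were found for Flt4. Of 10 receptors and co-receptors, 6 could be tested and 2 rose, where 4.01% of all genes did, at a median log2 fold change of 0.11. Nrp1, a co-receptor that binds VEGF-A, was at 15.8, 17.1 and 6.95 CPM in acLDL-low replicates 1, 2 and 3 and at 19.2, 23.5 and 8.91 CPM in acLDL-high, a log2 fold change of 0.37 (standard error 0.07, edgeR adjusted p = 0.00650). Pdgfrl, a PDGF receptor-like gene, had 0.42 (standard error 0.07, edgeR adjusted p = 0.00438). Flt1, whose mean was 122 CPM in the acLDL-high and 110.0 CPM in the acLDL-low population, had 0.12 (edgeR adjusted p = 0.223). Nrp2, the most abundant at 785 against 776 CPM, had 0.02 (edgeR adjusted p = 0.856). Pdgfra, a receptor for PDGF-AA and PDGF-CC that also binds PDGF-BB, was detected at 37.2 against 34.9 CPM. Its log2 fold change was 0.09 (edgeR adjusted p = 0.352). The receptor-like kinase Tie1 was at 1.47 against 1.38 CPM, with 0.10 (edgeR adjusted p = 0.829). Without replicate 3 the edgeR adjusted p was 0.0767 for Nrp1 and 0.0534 for Pdgfrl.

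Genes that cleave, bind or release these ligands were followed next. Of 20 such genes 18 were tested, 7 rose and none fell, where 4.01% and 1.45% of all genes did, and the median log2 fold change was 0.19. This list, like the ligands and the other related lists, was chosen with earlier results of these data known. The shares called are therefore given as a description. Plat (tissue plasminogen activator, which activates PDGF-CC) rose by 0.32 (standard error 0.07, edgeR adjusted p = 0.0135) and Plau (urokinase, which can activate PDGF-DD) by 0.38 (standard error 0.05, edgeR adjusted p = 0.000382). Without replicate 3 Plat had 0.39 with an edgeR adjusted p of 0.0589. Both activators rose in the same cells, while Pdgfd, a substrate of urokinase, had no counts.

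A further 4 genes that rose encode proteins that bind VEGF or free it from matrix. Thbs1 (thrombospondin-1, which can bind VEGF and inhibits angiogenesis) was at 788, 460.4 and 454 CPM in acLDL-low replicates 1, 2 and 3 and at 1084, 869 and 725 CPM in acLDL-high, a log2 fold change of 0.68 (standard error 0.07, edgeR adjusted p = 6.48e-05). Ccn2, a matrix protein that can bind VEGF-A, rose by 0.63 (edgeR adjusted p = 2.21e-05), although it differed between occasions by more than that, from 38.1 to 228 CPM among acLDL-high libraries. Mmp9, a gelatinase known to free VEGF from matrix, rose by 0.41 (edgeR adjusted p = 0.000141) and Adamts1, a protease that also binds VEGF-A, by 0.40 (edgeR adjusted p = 0.00262). Furin, a convertase that processes Pdgfa, Pdgfb and Vegfc precursors, had -0.03 (edgeR adjusted p = 0.710). Mmp14 and Sparc, with 0.15 and 0.23, missed the threshold at edgeR adjusted p of 0.0631 and 0.139. Ccbe1, a cofactor of VEGF-C processing, had 0.03 (edgeR adjusted p = 0.804), and its protease Adamts3 had at most 2 counts.

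Of 23 genes for HIF subunits, their regulators and their targets, 22 were tested, 1 rose and 1 fell, where 4.01% and 1.45% of all genes did, and the median log2 fold change was -0.08. Most leaned downward, and only 3 of the 22 had a log2 fold change above 0. In all 3 pairs 7 of the 22 were lower, as were 19% of all genes, and 2 were higher, as were 22.3% of all genes. Slc2a1, a glucose transporter, had pair differences of 0.13, -0.32 and 0.05 in log2 CPM, and Egln1, Egln3, Pdk1 and Hk2 were likewise lower in replicate 2 only. Ndrg1, a target of hypoxia, fell by 0.24 (standard error 0.05, edgeR adjusted p = 0.0163) and Angptl4, a secreted lipase inhibitor that is also HIF-induced, rose by 0.70 (standard error 0.14, edgeR adjusted p = 0.00940) from a low level of 1.90 CPM. Without replicate 1 or 3 the edgeR adjusted p of Angptl4 was 0.0726 or 0.0834. Car9, a common marker of hypoxia, was at 345, 119 and 421 CPM in acLDL-low replicates 1, 2 and 3 and at 332, 85.7 and 384 CPM in acLDL-high, lower in each pair at -0.21 (edgeR adjusted p = 0.0664). Replicate 2 thus held far less Car9 than replicate 1, while Vegfa was at like levels in both. In replicate 3 both Car9 and Vegfa were at their highest in each population, with Vegfa at 207 CPM in acLDL-low and 230.3 CPM in acLDL-high. Hif1a, the inducible subunit, had a log2 fold change of 0.12 (edgeR adjusted p = 0.151), and Epas1 had at most 2 counts. The difference between Vegfa and these genes was not tested.

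**Figure D5:**
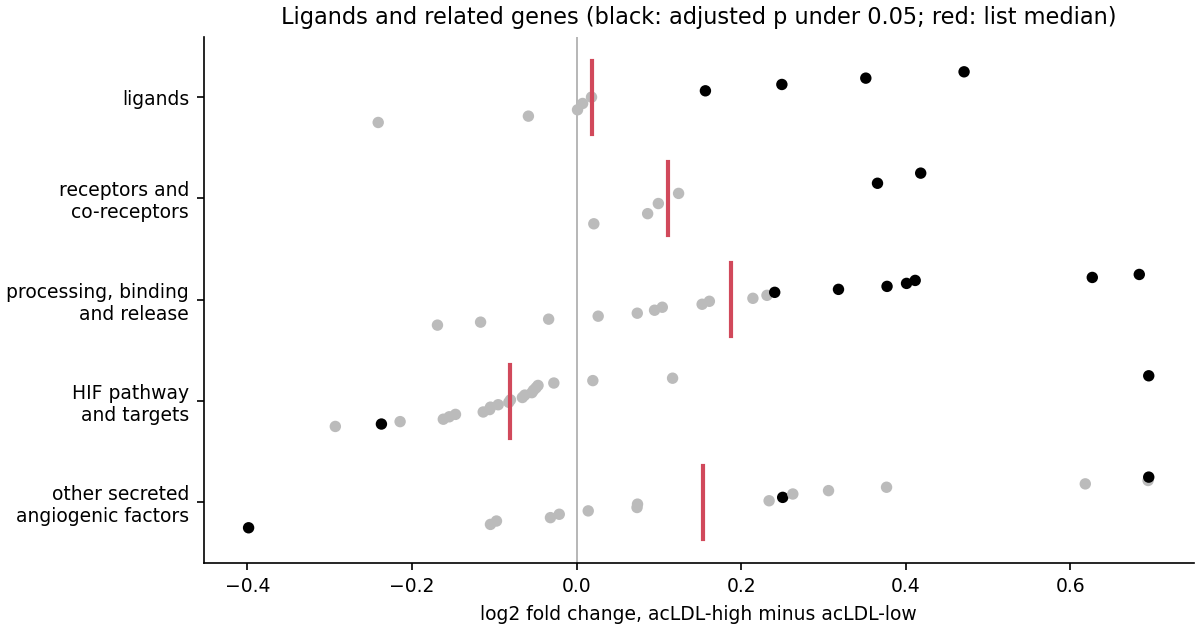
Log2 fold changes between acLDL-high and acLDL-low cells of the tested ligands and of the tested genes of 4 related lists, black for an edgeR adjusted p under 0.05, with the median of each list as a red line. The list of processing, binding and release genes has 7 black points, all to the right of 0, and most HIF pathway genes lie to the left. The lists were chosen with earlier results of these data known.

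The genes whose levels followed Vegfa and Pdgfb most closely over the 6 libraries were listed as a description, from 10538 genes with an average log2 CPM of at least 1. For Vegfa they were Aasdhppt, a phosphopantetheinyl transferase, Vrk3, a kinase, and Cpe, a carboxypeptidase, with Pearson correlations of log2 CPM of 0.997, 0.996 and 0.995. None of these 3 was called between the populations, with edgeR adjusted p of 0.733, 0.282 and 0.194. For Pdgfb they were St5, Lima1, an actin-binding protein, and Gbp2, an interferon-induced GTPase, with correlations of 0.991, 0.990 and 0.989. All 3 rose in acLDL-high cells, by 0.58, 0.23 and 0.51 (edgeR adjusted p of 0.000541, 0.00680 and 0.000813). They were picked for following Pdgfb, which itself rose, so these calls are not independent of the choice. With 6 points that share 3 occasions, and a search over so many genes, values this high say little about any single gene.

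The labelled cancer cell identity was checked with marker lists. All 10 epithelial markers were tested. Their summed level was 3516 to 5764 CPM in acLDL-low and 3966 to 6255 CPM in acLDL-high cells. The claudins Cldn3, Cldn4 and Cldn7, 3 of the 10, rose, where 4.01% of all genes did. Of 12 endothelial markers 5 had 0 counts, and only 4 could be tested, none of which was called. Their median log2 fold change was -0.30, and 2 of the 4 were lower in all 3 pairs, as were 19% of all genes. These were Pecam1 at -0.48 and Esam at -0.90 (edgeR adjusted p of 0.499 and 0.151), at no more than 0.539 CPM. The pairs of Cdh5 and Plvap differed in direction. The endothelial list summed to 1.73 to 3.72 CPM (acLDL-low) and 1.27 to 4.10 CPM (acLDL-high). Platelets carry PDGF. Of their 7 markers Pf4, Gp9 and Gp6 were at 0.0646 CPM or less in each library, Ppbp reached 0.469 CPM and was higher in all 3 pairs without being called (edgeR adjusted p = 0.668), and Gp1bb reached 0.321 CPM (edgeR adjusted p = 0.795). The platelet list summed to 12.5 to 26.8 CPM in acLDL-low and 14.4 to 34.6 CPM in acLDL-high cells, nearly all of it the integrins Itgb3, which rose by 0.50 (edgeR adjusted p = 0.00166), and Itga2b. The part of the claudins and of Itgb3 in the ligands' changes was not tested. The macrophage list summed to 10.05 to 12.5 and 9.82 to 10.4 CPM, nearly all of it Cd68 (6.80 to 10.9 CPM) and Mrc1 (1.52 to 2.97 CPM), neither of them called, with Adgre1 and the 3 C1q genes at 0. The list for fibroblasts and pericytes, 28.4 to 41.7 and 29.2 to 44.1 CPM, was almost all Pdgfra, with Lum, Col3a1, Thy1 and Kcnj8 at 0. The total count of a library lay between 70263372 and 94216786, and the lowest count of a detected ligand was 173, for Angpt2.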

How the data were processed

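RNA from both populations was sequenced as paired reads from stranded mRNA libraries. The authors aligned the reads to mm10 and deposited raw counts per gene for each library. The submitters' processing notes name STAR 2.5.2a, featureCounts 1.4.3-p1 and DESeq2 1.20.0. The annotation release and the strand setting of the counting are not given in the sources used here, and reads of overlapping genes could therefore be assigned differently. The authors also deposited a DESeq2 table with fold changes and p-values, of which only the gene IDs and symbols were used. No per-sample column was left out.

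Counts were tested with edgeR 4.0.16 (R 4.3.3) by the quasi-likelihood test, with TMM scaling, the filter filterByExpr and the replicate number as a block. Benjamini-Hochberg adjustment covered 12329 genes, at a threshold of 0.05. The difference between occasions was tested on the block terms of the same fit. CPM values are TMM-scaled, and log2 values per library used a prior count of 2. The numbers were treated as pairs because the experiment was repeated on separate occasions, and the deviations of same-numbered libraries correlated at 0.820, 0.869 and 0.822, against -0.585 to -0.0491 for other pairs. No library was a repeat deposit of another (chi-square per degree of freedom at least 18.7). All libraries came from a single clone. With the replicate block, the p-values rest on the spread of the high-low difference between pairs in that clone. edgeR moderated this spread for each gene toward a trend over all genes tested, so it is not the gene's own spread alone. The differences between occasions themselves were taken out of the error. Alternatives were a fit without the block, DESeq2 1.42.0, other filters and scalings, and leaving out each replicate.

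Levels were compared between genes per kb of GENCODE M21 exons. All members of the ligand list were named, with the 3 genes most like Vegfa and Pdgfb, and the called genes of the related lists, except for a gene whose values are not reported here. The members and lists were chosen with earlier results of these data known. The scripts were tested on simulated data.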

Additional observations from a re-analysis of the deposited data

How the results depend on the processing

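The direction and the call of Pdgfb were kept in all alternatives with the replicate block, at log2 fold changes of 0.40 to 0.55. Without the replicate block the edgeR fit called 0 of the 12329 genes, 0 of the 9 ligands and 0 of the 13 genes of the related lists, although the log2 fold changes were 0.16 for Vegfa, 0.48 for Pdgfb, 0.25 for Pdgfc and 0.40 for Angpt1. With DESeq2 and the block 2 ligands were called, and 470 genes in all against 674. Leaving out a replicate gave 126 to 869 genes called, 1 to 3 ligands and 7 to 17 genes of the related lists, with each low value found without replicate 3 (1 ligand also without replicate 1). The calls lost without replicate 3 in the related lists were those of Nrp1, Pdgfrl, Plat, Angptl4, Angptl6 and Hbegf. Leaving out replicates also gave 6034 to 8213 genes that differed between occasions, against 9774, the low value without replicate 2. With fewer samples in each of these fits, lost calls are not shown to be weaker effects.

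Values near 0 changed sign: Pdgfa was at -0.0024 with at least 10 counts required in every library, and without a replicate it ranged from -0.0296 to 0.0256. Vegfc ranged from -0.071 to 0.0842 and Angpt2 from -0.0258 to 0.0635 without a replicate. Counting error was small for the abundant ligands, and Angpt2, with the lowest counts, had the least precise fold change.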

Other observations

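Other secreted factors that act on vessels changed in both directions. Of 22 such genes 16 were tested, and 2 rose and 1 fell in acLDL-high cells, where 4.01% and 1.45% of all genes did, at a median log2 fold change of 0.15. Hbegf, an EGF-family ligand, was at 293, 311 and 432 CPM in acLDL-low replicates 1, 2 and 3 and at 391, 318 and 533 CPM in acLDL-high, and rose by 0.25 (standard error 0.06, edgeR adjusted p = 0.0274). Replicate 2 differed little and the others more, and the adjusted p of Hbegf was 0.404 with DESeq2, and with edgeR 0.139 without replicate 1 and 0.278 without replicate 3. Angptl4 was at 2.25, 2.31 and 1.15 CPM against 4.05, 3.53 and 1.74 CPM and rose by 0.70 (edgeR adjusted p = 0.00940), while Angptl6, an angiopoietin-like protein, fell by 0.40 on the log2 scale (edgeR adjusted p = 0.00738) to a mean of 9.11 CPM. Without replicate 3 neither passed the test, at edgeR adjusted p of 0.0834 for Angptl4 and 0.155 for Angptl6.

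Vegfd, the remaining VEGF gene, was at 1.81, 0.429 and 0.370 CPM in acLDL-low replicates 1, 2 and 3 and at 2.23, 1.25 and 0.496 CPM in acLDL-high. It was higher in each pair, at a log2 fold change of 0.69 (standard error 0.25), but did not pass the test (edgeR adjusted p = 0.131). Angptl2 was the most abundant of the angiopoietin-like genes, at 421 and 428 CPM, with -0.03 (edgeR adjusted p = 0.737). Hgf and Ptn had 0 counts in all 6 libraries.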
